A study of Mus musculus with 50 samples.

Results

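The genes described here are 34 genes of the autophagy machinery and of the muscle atrophy ubiquitin ligases, followed in quadriceps and in perigonadal white adipose tissue (pgWAT) of mice with activated GFRAL neurons and of their controls. They were chosen by symbol and were found in all 3 deposited tables, as 34 of 55401 gene entries in the table of the later fat samples and 34 of 55414 in each of the other 2. By role they fall into 8 groups. These are the initiation complex, the phosphatidylinositol 3-kinase complex, membrane supply, conjugation, the ATG8 family, cargo receptors, the transcription factor Tfeb and the ligases Fbxo32 and Trim63. The choice is a list of symbols and applies no measured value.

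Autophagy carries cytoplasm, damaged organelles and protein aggregates to the lysosome inside a newly built double membrane. A kinase complex starts the process, a lipid kinase complex marks the membrane, lipid transfer proteins and WIPI proteins let it grow, and a conjugation system attaches ATG8 proteins that hold cargo receptors. In wasting skeletal muscle, Fbxo32 (atrogin-1) and Trim63 (MuRF1) mark proteins for the proteasome, and FOXO transcription factors are known to raise both ligases and several autophagy genes. In fat, autophagy is known for its part in adipocyte formation and lipid turnover.

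The study used male hM3DGq mice that were Gfral Cre-positive (TG) or Cre-negative (WT), and every group was given 1 mg/kg of CNO (clozapine N-oxide). The receptor hM3Dq is activated by CNO, and Gfral Cre places it in neurons that express the receptor for GDF15. The aim, per the series text, was to follow gene expression in a muscle with lowered and a fat depot with raised glucose uptake during activation. Counts came from 3′ mRNA sequencing (QuantSeq) of 10 TG and 10 WT whole quadriceps from clamped mice, 9 TG and 9 WT pgWAT samples taken 1 h after CNO, and 6 TG and 6 WT pgWAT samples taken 6 h after CNO. A group without CNO was not analysed here, and neither the strain nor the age of the mice was given in the sources used here. The neurons that express Gfral lie in the hindbrain, so these tissues give no check of the genotype labels. The labels do not say that the replicates of a group were separate mice, so each p-value reflects the spread among samples of unstated origin.

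Libraries of quadriceps held 959980 to 2613672 gene counts. Those of pgWAT held 976610 to 4852560 at 1 h and 9150496 to 12883462 at 6 h. Levels are CPM, the share of a library's counts on a gene brought to the same total with TMM factors within each table. Since each transcript yields a tag at its 3′ end, CPM were not scaled by length. A count of 0 allows up to 3 counts, which was 1.03 to 3.30 CPM in quadriceps, 0.596 to 3.36 CPM at 1 h and 0.241 to 0.353 CPM at 6 h, for counting error only. A gene was called where edgeR's quasi-likelihood test gave a Benjamini-Hochberg adjusted p below 0.05 over all genes tested in its table. Summed skeletal muscle markers were 55499 to 65738 CPM in TG and 45572 to 74807 CPM in WT quadriceps. Summed adipocyte markers were 29452 to 36405 CPM in TG and 29741 to 37721 CPM in WT pgWAT at 6 h. Both tissues thus carried the markers of their labels. Some libraries stood apart by transcripts of other origin. Summed liver transcripts reached 1462 CPM in TG replicate 2 of pgWAT at 6 h, and at 1 h they reached 9664 CPM in TG replicate 3 and 2321 CPM in WT replicate 7. Inducible heat shock genes summed to 36.3 to 149.9 CPM (median 76.2) in TG quadriceps and 50.4 to 2852 CPM (median 186) in WT. The WT median thus lay above every TG library, and WT replicates 2 and 10 were highest at 2852 and 1594 CPM. All 3 genes had log2 changes from -2.86 to -2.66 and unadjusted edgeR p below 0.05. None was called (lowest adjusted p = 0.0772). Their part in the quadriceps levels was not tested beyond leaving out WT replicates 2 and 10.

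The promoters of 3 genes are printed, chosen among the promoters that held a motif. Atg101 and Bnip3 were called in fat at 6 h. Trim63, a muscle ligase not called in any set, had the sole FOXO site among the 29 promoters searched. No promoter of Fbxo32 was among them. The sequences are RefSeq promoter windows of build GRCm38.p6, read on the gene's own strand and limited to bases before the transcription start that lie in no annotated exon. Capitals mark the letters of the motifs named after them.
Trim63, chr4:134314870-134315119, plus strand: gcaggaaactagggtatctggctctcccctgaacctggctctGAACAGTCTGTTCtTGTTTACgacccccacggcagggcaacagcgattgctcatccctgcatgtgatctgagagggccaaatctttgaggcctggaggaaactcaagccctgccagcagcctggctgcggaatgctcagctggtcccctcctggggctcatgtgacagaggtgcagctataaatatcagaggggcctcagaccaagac
Atg101, chr15:101284051-101284271, plus strand: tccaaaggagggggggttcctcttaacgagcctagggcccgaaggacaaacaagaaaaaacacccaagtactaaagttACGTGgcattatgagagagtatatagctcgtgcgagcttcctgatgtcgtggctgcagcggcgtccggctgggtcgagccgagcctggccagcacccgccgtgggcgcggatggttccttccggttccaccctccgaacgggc
Bnip3, chr7:138909520-138909756, minus strand: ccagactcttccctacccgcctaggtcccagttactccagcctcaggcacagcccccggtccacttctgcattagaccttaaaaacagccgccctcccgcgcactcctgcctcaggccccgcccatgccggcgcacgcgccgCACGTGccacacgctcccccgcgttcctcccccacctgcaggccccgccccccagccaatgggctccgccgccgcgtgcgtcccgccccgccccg

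The 4 motifs searched on both strands were the FOXO site GTAAACA, the E-box CACGTG, the hypoxia core ACGTG, which every E-box of this kind also holds, and the glucocorticoid element, in which GNACA and TGTNC stand 3 bases apart. In Trim63 the capitals TGTTTAC are the FOXO site on the other strand, 194 bases before the start, and GAACAGTCTGTTC, 208 bases before it, matches the glucocorticoid element. In Atg101 they are the hypoxia core, 172 bases before the start, and in Bnip3 an E-box, 108 bases before it. The promoter table held 26 of the 34 genes, with 29 promoters. Unlike the printed sequences, the search and counts below cover all 250 bases before each start, annotated exons included. It had no entry for Fbxo32, Becn1, Atg12, Atg16l1, Pik3c3, Rb1cc1, Map1lc3a or Bnip3l, which were thus not searched. None of the 4 motifs was found for Wipi1, Gabarapl1 or Tfeb, which were also called in fat at 6 h. The FOXO site was in 1 of these 29 promoters and in 3.17% of all 32851 promoters, and the glucocorticoid element in 1 of 29 and in 0.387%. The E-box was in 4 of 29 promoters and 6.02% of all, and the hypoxia core in 11 of 29 and 16.6% of all. A match describes letters in these bases and is not a measured binding site.

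In quadriceps, 1 of the 32 genes tested was called, and the background was 2.03% of 8070 genes, with 0.942% lower. DESeq2 called the same gene, where its background was 1.6%. The called gene was Gabarapl1, an ATG8 protein that binds cargo receptors on the growing membrane, and it was lower in TG. The atrophy ligases Fbxo32 and Trim63 were not called. Atg7 and Atg9a had too few counts to be tested in this tissue.

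Gabarapl1 (ENSMUSG00000030161, GRCm38 chromosome 6, 129533160 to 129542346, plus strand) had a lowest level of 58.8, a median of 77.2 and a highest of 101 CPM in TG quadriceps. In WT quadriceps these were 77.4, 106 and 141 CPM. The groups overlapped, with 5 of 10 TG libraries under every WT library and 10 of 10 under the WT mean. Its mean was 78.7 ± 13.02 CPM in TG and 108 ± 17.7 CPM in WT (SD, n = 10 each), a log2 change of -0.46 (SE 0.099, edgeR adjusted p = 0.00592) or a fold of 0.729. The call held in all 27 alternatives run on this set, with log2 changes between -0.50 and -0.41. The transcript 1700101I11Rik lies on the other strand over part of Gabarapl1, and the strand setting of the counts was not given in the sources used here. Macrophage, endothelial and skeletal muscle marker genes held no call in this tissue.

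The other ATG8 genes lie on the same side of 0 in quadriceps, but none was called. Map1lc3b, the LC3 protein most used to follow autophagosomes, had a lowest level of 274, a median of 336 and a highest of 378 CPM in TG, against 264, 362 and 380 CPM in WT (log2 change -0.03, SE 0.077). Map1lc3a, its close relative, had 155, 209 and 267 CPM in TG, against 151, 203 and 368 CPM in WT (log2 change -0.04, SE 0.121). These ranges overlapped almost wholly. Gabarap, a sister of Gabarapl1, had 44.2, 58.6 and 71.5 CPM in TG, against 47.2, 64.4 and 85.8 CPM in WT (log2 change -0.10, SE 0.105). Gabarapl2, the remaining family member, had 39.4, 46.9 and 68.1 CPM in TG, against 35.2, 56.1 and 70.2 CPM in WT (log2 change -0.13, SE 0.110). Of all ATG8 tags, Gabarapl1 gave 10.9 ± 1.85% in TG and 13.9 ± 1.84% in WT. Map1lc3b gave 45.1 ± 3.66% in TG and 43.1 ± 5.31% in WT (SD, n = 10 each), so the order of the family stayed with Map1lc3b first and Map1lc3a second in both genotypes.

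**Figure D1:**
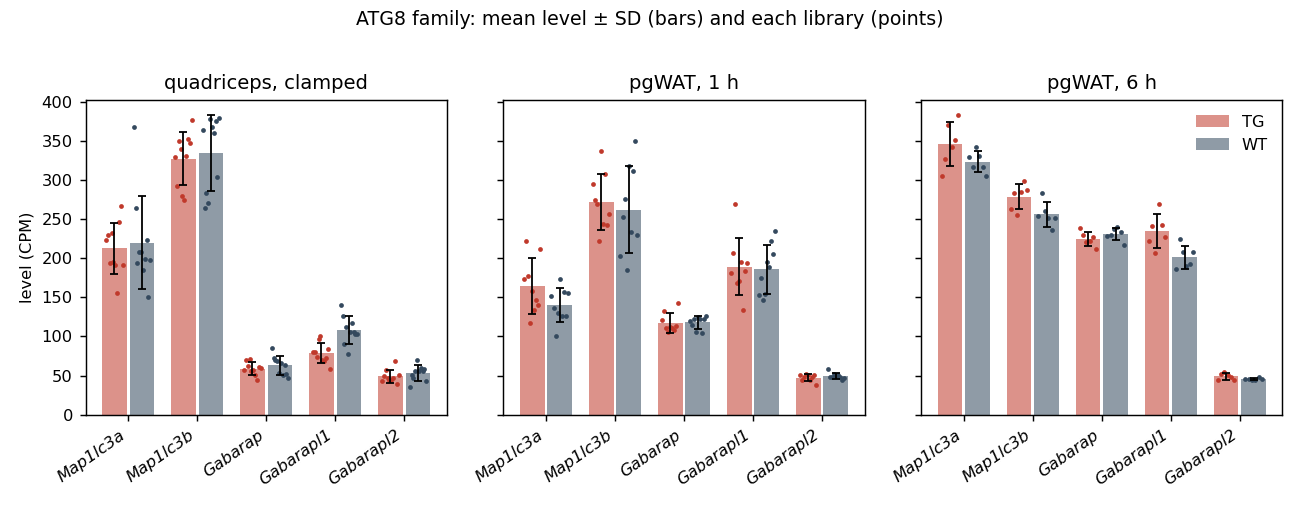
ATG8 family genes in the 3 tissue sets: level in CPM (y axis), bars for the group mean, error bars for the SD and points for single libraries, TG left of WT. In quadriceps Gabarapl1 averages 78.7 CPM in TG and 108 CPM in WT, while in pgWAT at 6 h it averages 235 CPM in TG and 201 CPM in WT.

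Fbxo32, the ubiquitin ligase atrogin-1, was among the most abundant of these transcripts in quadriceps. Its lowest, median and highest levels were 677, 1248 and 1566 CPM in TG, against 1132, 1389 and 2279 CPM in WT. The groups overlapped widely, with 2 of 10 TG libraries under every WT library. The means were 1234 ± 274 CPM in TG and 1549.8 ± 404 CPM in WT (SD, n = 10 each), a log2 change of -0.33 (SE 0.157, edgeR p = 0.0505, adjusted p = 0.430). Trim63, the ligase MuRF1, had 772, 1056 and 1200.3 CPM in TG, against 681, 1042 and 1649 CPM in WT. Its log2 change was -0.03 (SE 0.128, edgeR adjusted p = 0.968), and it turned positive in some fits without a single library. Neither ligase was therefore distinguishable between genotypes at this spread.

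Among the cargo receptors of quadriceps, which link ubiquitin-marked cargo or mitochondria to ATG8 proteins, 0 of 5 were called by edgeR or DESeq2. None had an unadjusted edgeR p below 0.05, where 942 of all 8070 genes had one. Sqstm1, which encodes p62, had 641, 717 and 876 CPM in TG, against 650, 797 and 999 CPM in WT (log2 change -0.14, SE 0.072, adjusted p = 0.455). All 5 receptors had log2 changes below 0, from -0.14 to -0.03. The kinase complex genes Ulk1, Ulk2, Atg13, Atg101 and Rb1cc1, which start autophagy, spanned -0.09 to 0.03. The lipid kinase genes Becn1, Pik3c3, Pik3r4, Atg14 and Ambra1 spanned -0.12 to 0.04, and the conjugation genes tested, Atg3, Atg4b, Atg5, Atg12 and Atg16l1, spanned -0.15 to 0.12. The membrane supply genes tested, Atg2a, Atg2b, Wipi1 and Wipi2, spanned -0.21 to -0.02. Over the 32 genes the median log2 change was -0.065 with 6 above 0, beside a median of -0.0034 and 49% above 0 over all genes tested.

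In pgWAT at 1 h, 0 of the 32 genes tested were called by edgeR, where the background was 0.0722% of 11087 genes, and 0 by DESeq2, where it was 0.162%. Bnip3l, a receptor for mitochondria, was the sole gene with an unadjusted edgeR p below 0.05, where 4.62% of all genes had one. Its lowest, median and highest levels were 55.6, 67.3 and 79.3 CPM in TG, against 53.99, 58.9 and 69.4 CPM in WT, so the groups overlapped. Its log2 change was 0.19 (SE 0.085, edgeR p = 0.0374, adjusted p = 1.00). Over the 32 genes the median log2 change was -0.0072 with 15 above 0, beside 0.0086 and 52.7% over all genes. Atg9a and Trim63 were not tested.

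The ATG8 genes at 1 h had log2 changes between -0.06 and 0.23, with SEs from 0.076 to 0.120. Map1lc3a had a lowest level of 117, a median of 158 and a highest of 223 CPM in TG, against 101, 136 and 174 CPM in WT. Gabarapl1 had 134, 184 and 270.1 CPM in TG, against 147, 189 and 235 CPM in WT. Both pairs of groups overlapped. Map1lc3b had 222, 270 and 337 CPM in TG, against 185, 253 and 350 CPM in WT. Gabarap had 105, 113 and 143 CPM in TG, against 104, 122 and 126 CPM in WT, and Gabarapl2 had 38.4, 47.8 and 51.9 CPM in TG, against 44.0, 48.5 and 57.9 CPM in WT. None of these groups stood apart. Fbxo32 had 34.9, 50.6 and 58.4 CPM in TG, against 35.3, 45.2 and 53.3 CPM in WT (log2 change 0.09, SE 0.112). Sqstm1 had 319, 397 and 528 CPM in TG, against 338, 405 and 465.8 CPM in WT (log2 change 0.01, SE 0.091), and Tfeb 6.57, 9.83 and 14.7 CPM in TG, against 7.31, 11.9 and 13.8 CPM in WT (log2 change -0.14, SE 0.163). The 1 h set also varied in mesothelial markers, which cover the fat pad. All 6 had log2 changes above 0 and none was called, and their sum was 42.0 to 454 CPM in TG and 20.5 to 235 CPM in WT. Their part in the levels above was not tested.

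In pgWAT at 6 h, 7 of the 33 genes tested were called, of which 6 rose and 1 fell in TG. The background was 14.4% of 14359 genes, with 6.88% higher and 7.54% lower. DESeq2 called the same 7 genes, beside a background of 14.3%. The risen genes were Atg101, Wipi1, Becn1, Gabarapl1, Bnip3 and Fbxo32, and the gene that fell was Tfeb. The 6 that rose sit at different steps, 1 each in the initiation complex, membrane supply, the lipid kinase complex, the ATG8 family, the cargo receptors and the ligases. Atg101, Wipi1, Becn1, Bnip3 and Fbxo32 were called in all 12 fits without 1 library, that without TG replicate 2 among them. In bulk tissue a change in the share of a cell type and a change in RNA per cell cannot be told apart.

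**Figure D2:**
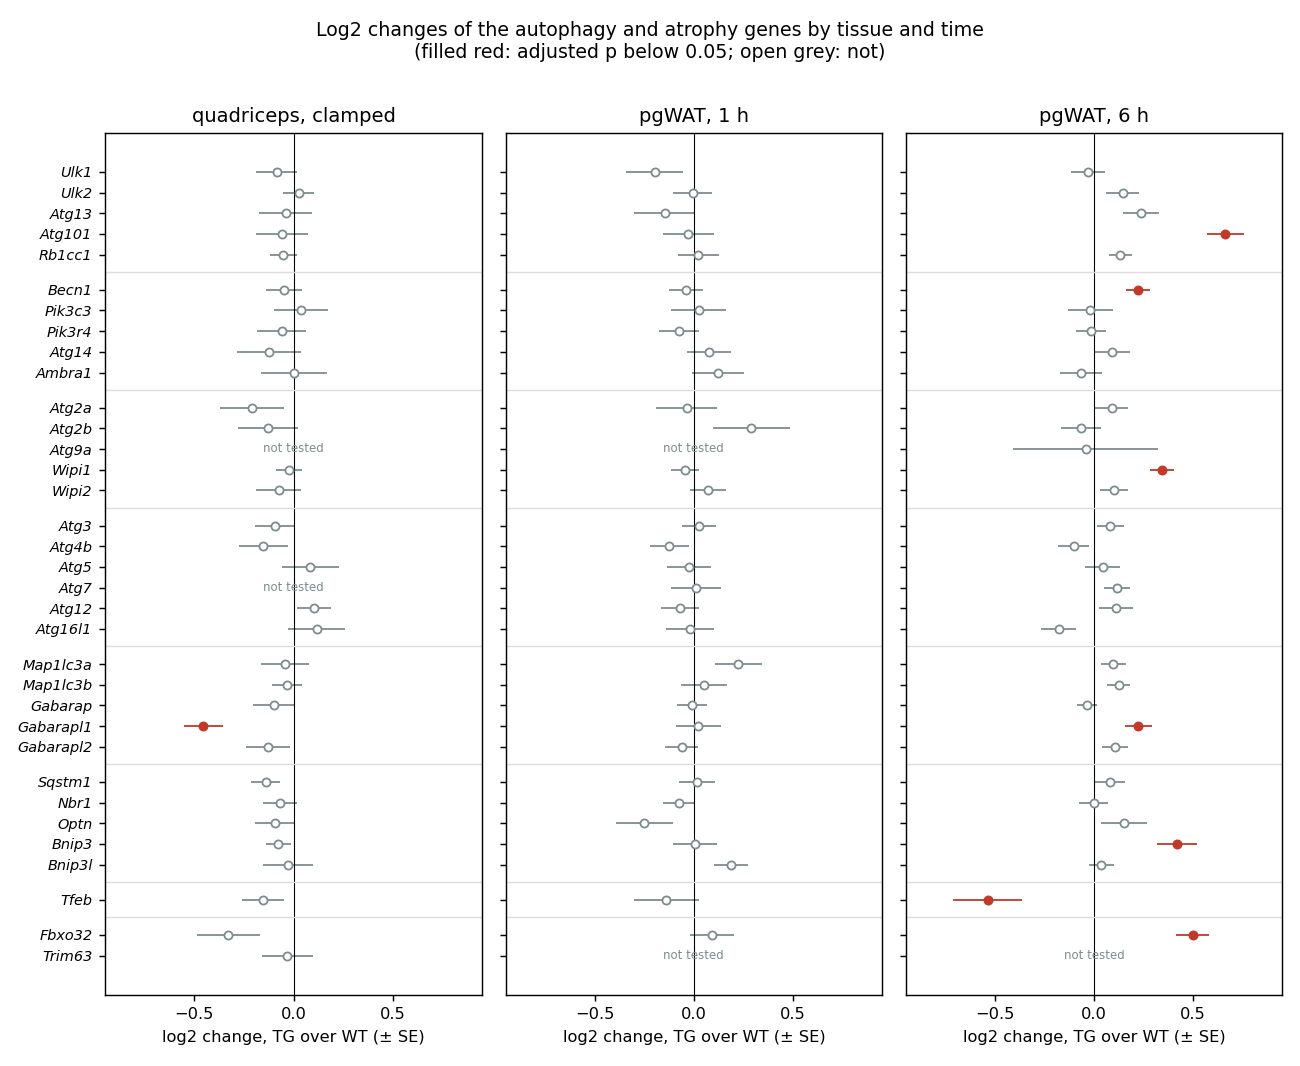
Log2 change of each gene, TG over WT (x axis), with its standard error, for quadriceps, pgWAT at 1 h and pgWAT at 6 h, grouped by role from the initiation complex at the top to the ligases at the bottom. Filled red points are called genes, of which quadriceps has 1, pgWAT at 1 h has 0 and pgWAT at 6 h has 7.

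Atg101 (ENSMUSG00000037204, GRCm38 chromosome 15, 101284272 to 101290945, plus strand) encodes the partner that stabilises ATG13 in the initiation complex. Its levels in replicates 1 to 6 were 57.3, 55.6, 64.4, 62.01, 57.4 and 59.9 CPM in TG, and 36.3, 31.6, 44.6, 43.3, 39.1 and 30.4 CPM in WT. Every TG library stood above every WT library. The means were 59.4 ± 3.30 CPM in TG and 37.6 ± 5.89 CPM in WT (SD, n = 6 each), a log2 change of 0.66 (SE 0.092, edgeR adjusted p = 8.17e-05) or a fold of 1.58. This was the largest change of the 33 genes. Its complex partners were not called. Atg13 had 33.7 ± 3.16 CPM in TG and 28.6 ± 3.23 CPM in WT (edgeR adjusted p = 0.0891). Rb1cc1, the scaffold FIP200, had 138 ± 7.67 CPM in TG and 126 ± 7.39 CPM in WT (adjusted p = 0.153). The kinases Ulk1 and Ulk2 had log2 changes of -0.03 and 0.14.

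Wipi1 (ENSMUSG00000041895, GRCm38 chromosome 11, 109573331 to 109611967, minus strand) encodes a protein that reads the lipid mark on the growing membrane. Its levels in replicates 1 to 6 were 165, 162, 175, 167, 156 and 167 CPM in TG, and 125, 118, 136, 137, 144 and 121 CPM in WT. The groups did not overlap. The means were 165 ± 6.38 CPM in TG and 130 ± 10.2 CPM in WT (SD, n = 6 each), a log2 change of 0.34 (SE 0.060, edgeR adjusted p = 7.39e-04). Its paralog Wipi2 and the lipid transfer genes Atg2a and Atg2b had log2 changes of 0.10, 0.09 and -0.07 and were not called. Atg9a, which encodes the scramblase of the growing membrane, was near 1 CPM in every group of pgWAT at 6 h and was not called. Gm29253 overlaps Atg9a on its own strand, so its tags may have been shared.

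Becn1 (ENSMUSG00000035086, GRCm38 chromosome 11, 101285952 to 101302286, minus strand) encodes Beclin 1 of the lipid kinase complex. Its levels in replicates 1 to 6 were 107, 105, 102, 110, 111 and 109 CPM in TG, and 81.8, 87.5, 97.1, 102, 91.7 and 91.3 CPM in WT. The highest WT library lay just above the lowest TG library, and 5 of 6 TG libraries lay above every WT library. The means were 107 ± 3.43 CPM in TG and 91.9 ± 7.07 CPM in WT (SD, n = 6 each), a log2 change of 0.22 (SE 0.060, edgeR adjusted p = 0.0175). The call was lost with library totals in place of TMM scaling (log2 change 0.15, adjusted p = 0.154). Cntd1 overlaps Becn1 on the other strand. The other complex members, Pik3c3, Pik3r4, Atg14 and Ambra1, had log2 changes from -0.07 to 0.09.

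Gabarapl1, the gene that fell in quadriceps, had levels in replicates 1 to 6 of pgWAT at 6 h of 222, 241, 207, 270.1, 243 and 227 CPM in TG, and 186, 225, 208, 190, 193 and 208 CPM in WT. The groups overlapped, with 4 of 6 TG libraries above every WT library. The means were 235 ± 21.6 CPM in TG and 201 ± 14.5 CPM in WT (SD, n = 6 each), a log2 change of 0.22 (SE 0.069, edgeR adjusted p = 0.0385). This call was lost in 8 of the 12 fits without 1 library, those without WT 1, 4, 5 or 6 or TG 2, 4, 5 or 6, with adjusted p up to 0.0946. TG replicate 2, which carried liver transcripts, is among them. It was also lost with library totals in place of TMM scaling (adjusted p = 0.136). The other 4 ATG8 genes were not called, with log2 changes from -0.04 for Gabarap to 0.12 for Map1lc3b. Map1lc3a had a lowest level of 305, a median of 347 and a highest of 384 CPM in TG, against 306, 323 and 343 CPM in WT. Map1lc3b had 256, 284 and 299 CPM in TG, against 236, 253 and 283 CPM in WT. Both overlapped between genotypes. Gabarap had 212, 225 and 239 CPM in TG, against 217, 232 and 240 CPM in WT, and Gabarapl2 had 44.0, 49.7 and 54.02 CPM in TG, against 44.2, 45.4 and 48.0 CPM in WT. Summed over the family the level was 1135 ± 38.6 CPM in TG and 1058 ± 31.8 CPM in WT (SD, n = 6 each).

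Bnip3 (ENSMUSG00000078566, GRCm38 chromosome 7, 138890836 to 138909519, minus strand) encodes a mitochondrial receptor for autophagy that low oxygen is known to raise. Its levels in replicates 1 to 6 were 400, 530, 591, 581, 682 and 591 CPM in TG, and 405, 455, 442, 382, 379 and 462 CPM in WT. TG replicate 1 lay within the WT range and the other 5 TG libraries lay above it. That library also had the highest summed macrophage markers, 1763 CPM where the next TG library had 1109 CPM and WT libraries up to 1323 CPM, and the highest summed fibroblast and progenitor markers, 734 CPM. Without it Bnip3 was called with a log2 change of 0.50, and the other 6 genes were called too. The means were 562 ± 93.5 CPM in TG and 421 ± 36.9 CPM in WT (SD, n = 6 each), a log2 change of 0.42 (SE 0.101, edgeR adjusted p = 0.00930). Gm45507 overlaps Bnip3 on the other strand. The paralog Bnip3l had a log2 change of 0.04 (SE 0.063, adjusted p = 0.768). Sqstm1 had a lowest level of 313, a median of 327 and a highest of 346 CPM in TG, against 274, 299 and 391 CPM in WT, and was not called (log2 change 0.08, SE 0.075). Mrnip and Zcchc14 overlap Sqstm1 and Map1lc3b on the other strand. The receptors Nbr1 and Optn had log2 changes of -0.0030 and 0.15 and were not called.

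Fbxo32 (ENSMUSG00000022358, GRCm38 chromosome 15, 58175879 to 58214932, minus strand) rose in fat at 6 h. Its levels in replicates 1 to 6 were 29.2, 29.3, 25.8, 33.5, 28.7 and 27.99 CPM in TG, and 19.5, 20.9, 22.7, 18.1, 20.7 and 21.7 CPM in WT. The groups did not overlap. The means were 29.1 ± 2.54 CPM in TG and 20.6 ± 1.61 CPM in WT (SD, n = 6 each), a log2 change of 0.50 (SE 0.083, edgeR adjusted p = 4.79e-04) or a fold of 1.41. Gm15943 overlaps Fbxo32 on the other strand. Skeletal muscle markers also differed in this set, with Acta1 called and a sum of 69.1 to 124 CPM in TG and 28.02 to 56.4 CPM in WT. All 10 of these markers had counts, 4 were tested, and 3 of these 4 had log2 changes above 0. The difference in mean marker sum was 48.8 CPM, which at the marker to Fbxo32 ratio of WT quadriceps goes with 1.182 CPM of Fbxo32, where the observed difference was 8.47 CPM. Whether muscle RNA in a fat pad has the profile of whole quadriceps was not measured, and the part of muscle RNA in the Fbxo32 difference was not tested. Trim63 gave 15 counts over the 6 TG libraries, in 3 of them, and 1 count over the 6 WT libraries, and it was not tested. Its mean in each genotype, 0.213 CPM in TG and 0.0152 CPM in WT, was below the limit that a count of 0 allows in a single library, so no fold is given.

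Tfeb (ENSMUSG00000023990, GRCm38 chromosome 17, 47737030 to 47792419, plus strand) encodes the transcription factor that controls lysosome and autophagy genes. Its levels in replicates 1 to 6 of pgWAT at 6 h were 7.13, 5.98, 6.00, 5.31, 3.53 and 7.50 CPM in TG, and 10.6, 8.08, 7.54, 7.54, 10.1 and 7.69 CPM in WT. The groups did not overlap, though the highest TG and the lowest WT library were close. The means were 5.91 ± 1.42 CPM in TG and 8.58 ± 1.37 CPM in WT (SD, n = 6 each), a log2 change of -0.54 (SE 0.175, edgeR adjusted p = 0.0483). The call was lost in 10 of the 12 fits without 1 library, all but those without TG 1 or TG 6, with adjusted p up to 0.118, and without the filter on low counts.

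**Figure D3:**
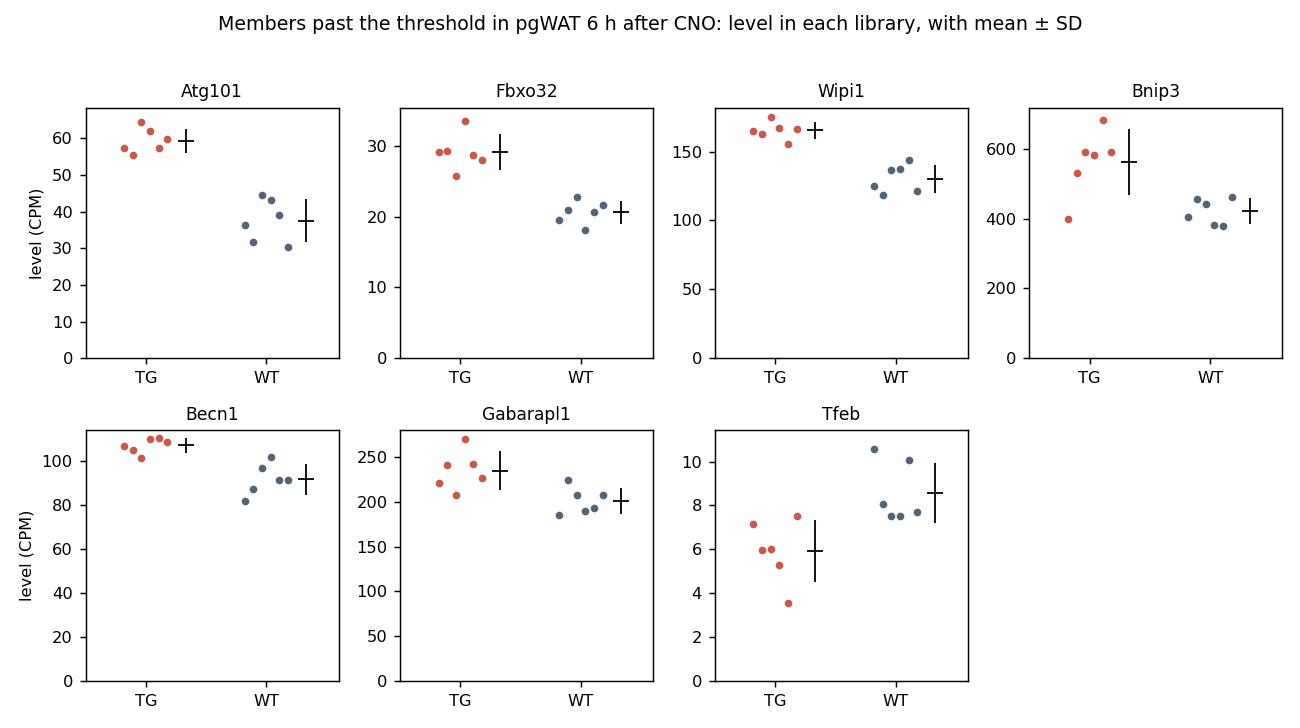
The 7 called genes in pgWAT 6 h after CNO: level in CPM on a linear y axis for each library (points) with the mean and SD (bars), TG left of WT. Atg101, Fbxo32, Wipi1 and Tfeb show no overlap between genotypes, while 1 TG library lies within the WT range for Bnip3.

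The 6 conjugation genes were the group with 0 calls at 6 h by edgeR and by DESeq2. They are Atg3, Atg4b, Atg5, Atg7, Atg12 and Atg16l1, the enzymes and scaffold that attach ATG8 proteins to the membrane. Their log2 changes ran from -0.18 for Atg16l1 to 0.12 for Atg7. The lowest edgeR adjusted p was 0.208, with 0 of 6 under an unadjusted p of 0.05. Over all genes tested 14.4% were called, and 3821 of 14359 had an unadjusted edgeR p below 0.05. With 6 genes, 0 calls cannot be told from these shares. Over the 33 genes the median log2 change was 0.091 with 22 above 0, beside a median of 0.0016 and 50.2% above 0 over all genes tested. The groups did not overlap for 4 of the 33 genes, where the background was 7.66%. With library totals in place of TMM scaling the calls over all genes were 665 higher and 1457 lower, against 988 higher and 1083 lower, and the median of the 33 genes was 0.024. Pparg, the adipocyte transcription factor, fell by 1.01 on the log2 scale and Cidec, a lipid droplet gene, rose by 0.38 at 6 h, while the summed adipocyte markers overlapped between genotypes. The part of adipocyte content in the called genes was not tested beyond this sum. Endothelial, macrophage and fibroblast markers held no call at 6 h. Of 6 mesothelial markers Wt1 was lower in TG (log2 change -0.70, edgeR adjusted p = 0.0258), and 5 of 6 had log2 changes below 0, with sums of 71.3 to 295 CPM in TG and 118 to 238 CPM in WT. Of 3 inducible heat shock genes Dnajb1 was higher (log2 change 0.78, adjusted p = 0.00159) and Hspa1b lower (log2 change -0.53, adjusted p = 0.0120), with sums of 52.2 to 86.9 CPM in TG and 36.8 to 55.6 CPM in WT. Their part in the called genes was not tested.

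Whether the genotype difference itself changed between the 2 fat time points was tested in 1 edgeR fit over all pgWAT libraries. The change was larger at 6 h than at 1 h for 2 of the 32 genes tested, Atg101 and Wipi1, beside a background of 4.21% of 13022 genes, with 1.87% higher. Atg101 differed by 0.70 (SE 0.170, adjusted p = 0.0117) and Wipi1 by 0.39 (SE 0.095, adjusted p = 0.0120) on the log2 scale. At 1 h Atg101 had a log2 change of -0.03 (SE 0.128) and Wipi1 of -0.04 (SE 0.072). Fbxo32 and Bnip3 differed by 0.41 each, with adjusted p = 0.113 and 0.187, and Becn1, Gabarapl1 and Tfeb by 0.26, 0.20 and -0.39, with adjusted p = 0.246, 0.601 and 0.467. For these 5 genes a difference between the times was not shown. The library kit also differed between the times, so time and kit cannot be told apart.

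The same test between quadriceps and pgWAT at 6 h, which uses the same 6 h libraries again, called 5 of 33 genes, beside a background of 5.06% of 10729 genes, with 2.81% lower. The genotype change in quadriceps was lower than that in fat for all 5. The difference was -0.66 for Gabarapl1 (SE 0.130, adjusted p = 6.85e-04), -0.47 for Bnip3 (SE 0.114, adjusted p = 0.00638) and -0.70 for Atg101 (SE 0.176, adjusted p = 0.00998). It was -0.81 for Fbxo32 (SE 0.216, adjusted p = 0.0201), a call lost without the filter on low counts (adjusted p = 0.0531). It was -0.35 for Wipi1 (SE 0.090, adjusted p = 0.0121), a call lost with library totals in place of TMM scaling (adjusted p = 0.104). Gabarapl1 was thus called in both tissues with opposite signs, lower in TG quadriceps and higher in TG fat. Tissue, kit, time and the clamp coincide in this comparison and cannot be told apart.

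**Figure D4:**
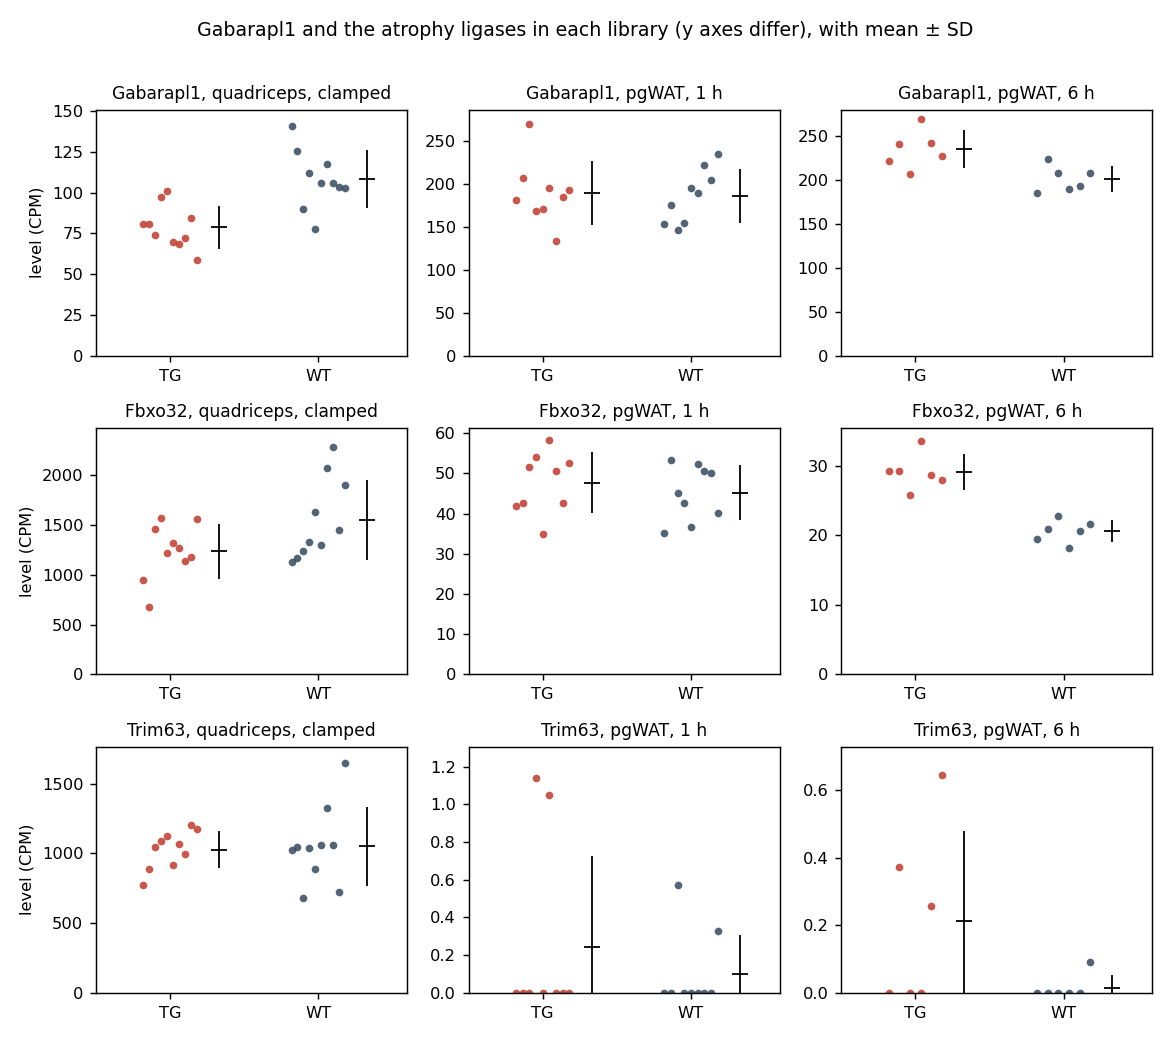
Gabarapl1, Fbxo32 and Trim63 in every library of quadriceps, pgWAT at 1 h and pgWAT at 6 h: level in CPM (y axes differ between panels) with mean and SD, TG left of WT. Fbxo32 averages 1234 CPM in TG and 1549.8 CPM in WT quadriceps and 29.1 CPM in TG and 20.6 CPM in WT pgWAT at 6 h, and Trim63 is near 0 in fat.

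Levels of these genes in WT mice, all given CNO, differed widely between the 3 sets. The 3 tables were scaled separately and no test was made across them. Tissue and the clamp coincide between quadriceps and fat, and time and kit coincide within fat, so their parts cannot be told apart. The ligases were muscle transcripts. Fbxo32 averaged 1549.8 ± 404 CPM in WT quadriceps, 45.2 ± 6.82 CPM in WT pgWAT at 1 h and 20.6 ± 1.61 CPM at 6 h, and Trim63 1049.7 ± 281, 0.100 and 0.0152 CPM. Tfeb averaged 54.2 ± 10.1 CPM in WT quadriceps, 11.1 ± 1.90 CPM in pgWAT at 1 h and 8.58 ± 1.37 CPM at 6 h. Atg7, the enzyme that activates ATG8 proteins, ran the other way with 6.26 CPM in WT quadriceps, 36.95 CPM at 1 h and 61.6 CPM at 6 h. The most abundant of the 34 in WT fat was Bnip3, with 544 CPM at 1 h and 421 CPM at 6 h, while in WT quadriceps it was Fbxo32. Levels between genes compare tags per transcript end and not lengths of RNA.

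Further genes of the pathway were read from 4 lists of 105 genes outside the 34. In quadriceps 1 of 26 further autophagy genes was called, 0 of 24 tested lysosome genes, 2 of 28 tested upstream regulators and 0 of 20 further ligase and ubiquitin genes, where 2.03% of all genes were called. An unadjusted edgeR p below 0.05 was found for 2 of the lysosome genes and 2 of the ligase and ubiquitin genes. Over all genes tested in quadriceps, 942 of 8070 had one. Trp53inp1, a p53 target that binds ATG8 proteins, had 73.3 ± 11.6 CPM in TG and 45.7 ± 5.34 CPM in WT (log2 change 0.68, edgeR adjusted p = 1.71e-05). Ddit4, the stress-induced inhibitor of mTORC1, had 608 ± 55.9 CPM in TG and 433 ± 92.3 CPM in WT (log2 change 0.49, adjusted p = 0.00395). Flcn, folliculin of the lysosomal nutrient pathway, had 49.2 ± 10.2 CPM in TG and 74.8 ± 15.4 CPM in WT (log2 change -0.61, adjusted p = 0.00227; SD, n = 10 each). All 10 TG libraries lay on the called side of the WT mean for these 3 genes. The 3 were named because they were called, so this is no separate support. Foxo1, Foxo3 and Klf15, which drive atrophy genes in muscle, had log2 changes of -0.05, -0.10 and 0.15 and were not called.

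In pgWAT at 1 h the sole calls among the 4 lists were 2 upstream regulators, where 0.0722% of all genes were called. Of the other lists, 0 of 26 further autophagy, 1 of 28 lysosome and 1 of 17 ligase and ubiquitin genes had an unadjusted edgeR p below 0.05. The share over all genes was 4.62%. Ddit4 had 204 ± 39.1 CPM in TG and 110 ± 22.5 CPM in WT (log2 change 0.89, edgeR adjusted p = 0.00103). Depp1, a FOXO target linked to autophagy, had 198 ± 67.8 CPM in TG and 84.8 ± 26.0 CPM in WT (log2 change 1.21, adjusted p = 0.0309; SD, n = 9 each). The Depp1 call was lost in 11 of the 18 fits without 1 library, among them those without TG 3 or WT 7, and with both of these left out. It was also lost without the filter on low counts, with a replicate block and with a factor from the library numbers, with adjusted p up to 0.186. Foxo1, Foxo3 and Klf15 had log2 changes of 0.04, 0.12 and -0.07 at 1 h and were not called.

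In pgWAT at 6 h the 4 lists held 27 calls. Of 26 further autophagy genes, 6 rose and 3 fell, with a median log2 change of 0.11. Over all genes 6.88% were higher and 7.54% lower, and the median was 0.0016. Trp53inp1 had 69.4 ± 5.50 CPM in TG and 20.2 ± 2.08 CPM in WT (log2 change 1.78, edgeR adjusted p = 3.39e-10). Vmp1, needed for the first membrane, had 162 ± 31.5 CPM in TG and 89.9 ± 16.4 CPM in WT (log2 change 0.85, adjusted p = 0.00124). Uvrag, a Beclin 1 partner, had 52.96 ± 7.73 CPM in TG and 35.4 ± 2.47 CPM in WT (log2 change 0.58, adjusted p = 2.53e-04). Plekhm1, which tethers autophagosomes to lysosomes, was lower, with 32.5 ± 1.35 CPM in TG and 45.7 ± 5.24 CPM in WT (log2 change -0.49, adjusted p = 3.63e-04; SD, n = 6 each). The groups did not overlap for 6 of the 26 genes, these 4 among them, where the share over all genes was 7.66%. These 4 were named for their small p, so their lack of overlap is no separate support.

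Of the 28 lysosome genes at 6 h, 5 rose and 0 fell by edgeR's test, and 27 had log2 changes above 0, with a median of 0.10 and a largest change of 0.25. Over all genes tested 14.4% were called, 6.88% higher, and 50.2% lay above 0. The share of lysosome genes called in either direction was thus near the background. Lamp2, a lysosome membrane protein, had 301 ± 9.81 CPM in TG and 262 ± 14.1 CPM in WT (log2 change 0.20, edgeR adjusted p = 0.0182). Scarb2, the carrier of an enzyme to lysosomes, had 247 ± 7.61 CPM in TG and 219 ± 2.99 CPM in WT (log2 change 0.17, adjusted p = 0.0232). The proton pump genes Atp6v1e1 and Atp6v1h had log2 changes of 0.20 and 0.22 (adjusted p = 0.0420 and 0.0435). The remaining one, Npc1, a cholesterol exporter, had a log2 change of 0.25 (adjusted p = 0.0437). Whether the Npc1 call held under the alternatives was not checked. The calls of Lamp2, Scarb2 and both pump genes were lost with library totals in place of TMM scaling, where Lamp2 had an adjusted p of 0.129 and Scarb2 of 0.267. Without the filter on low counts Scarb2 and both pump genes were lost, and with a replicate block Lamp2, Scarb2 and Atp6v1e1 were lost. Atp6v1e1 and Atp6v1h were also lost in 10 and 8 of the 12 fits without 1 library.

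Of 30 upstream regulators tested at 6 h, 9 were higher and 2 lower, where 6.88% of all genes were higher and 7.54% lower. Foxo1 had 254 ± 43.9 CPM in TG and 127 ± 11.7 CPM in WT (log2 change 1.00, edgeR adjusted p = 5.77e-06), and Foxo3 had 58.96 ± 6.24 CPM in TG and 37.04 ± 3.76 CPM in WT (log2 change 0.67, adjusted p = 3.31e-05). Ddit4 had 245 ± 22.1 CPM in TG and 45.2 ± 20.7 CPM in WT (log2 change 2.44, adjusted p = 3.53e-05), and Sesn1, a p53 and FOXO target that restrains mTORC1, had 49.2 ± 5.49 CPM in TG and 30.2 ± 3.34 CPM in WT (log2 change 0.70, adjusted p = 3.75e-05). Klf15, a glucocorticoid target, had 50.3 ± 7.40 CPM in TG and 30.4 ± 9.83 CPM in WT (log2 change 0.73, adjusted p = 0.0239; SD, n = 6 each). The Klf15 call was lost in 4 of the 12 fits without 1 library, those without WT 1, WT 5, TG 3 or TG 4, with adjusted p up to 0.0554. It was also lost without the filter on low counts (edgeR adjusted p = 0.0703). The others called higher were Depp1, Mtor, Deptor and Prkab2. The 2 regulators that fell were Tfe3 and Mitf, the relatives of Tfeb, with log2 changes of -0.28 and -0.48. All of these were named after their values were seen. The genotype change of Foxo1 was larger at 6 h than at 1 h by 0.96 (SE 0.142, adjusted p = 3.11e-05) and differed by -1.03 between quadriceps and fat at 6 h (SE 0.118, adjusted p = 3.43e-08).

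Of 17 further ligase and ubiquitin genes tested at 6 h, 2 rose and 0 fell by edgeR's test, where 14.4% of all genes were called. Cblb, a ligase that acts on receptor signalling, had 31.3 ± 2.74 CPM in TG and 21.5 ± 2.43 CPM in WT (log2 change 0.54, edgeR adjusted p = 4.16e-04). Mdm2, the ligase of p53, had 50.4 ± 6.69 CPM in TG and 40.7 ± 4.37 CPM in WT (log2 change 0.31, adjusted p = 0.0341; SD, n = 6 each). The Mdm2 call was lost in 7 of the 12 fits without 1 library and with library totals in place of TMM scaling.

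**Figure D5:**
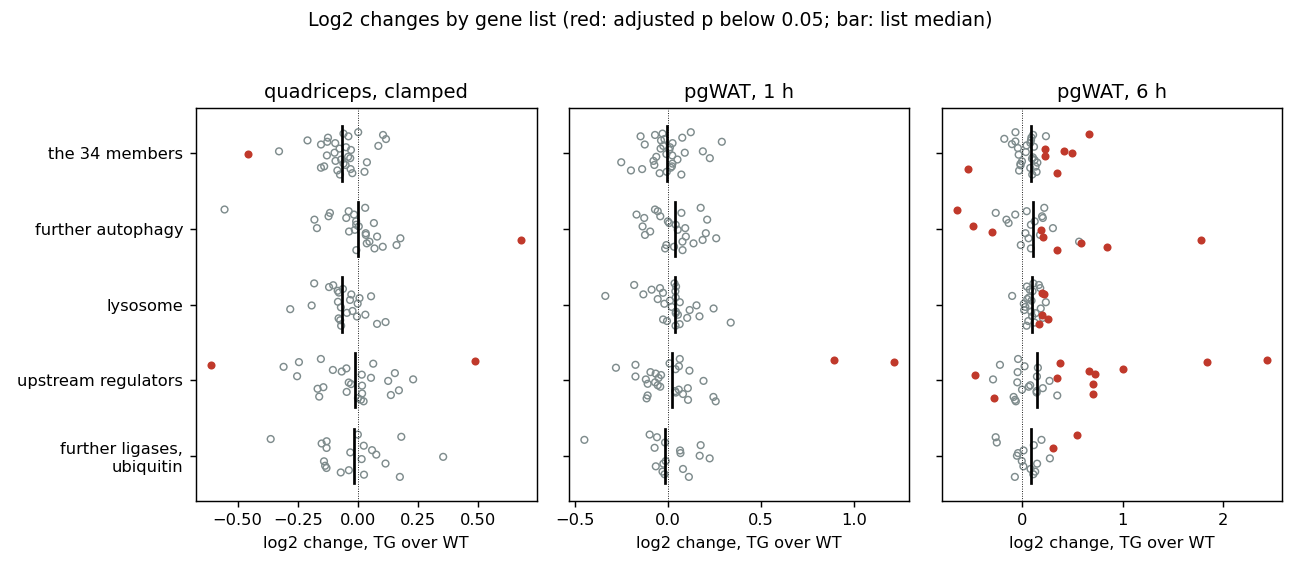
Log2 change of each tested gene, TG over WT (x axis), for the 34 autophagy and ligase genes and for 4 further lists, in quadriceps, pgWAT at 1 h and pgWAT at 6 h; x axes differ, red points are called and bars are list medians. The called points are few in quadriceps and at 1 h, and at 6 h the upstream regulators hold 11.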

How the data were processed

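The deposited values were raw counts per gene, whole numbers that the authors had not normalized. The submitters' processing notes name STAR 2.7.10, cutadapt 1.18, UMI-tools 1.1.2 and bcl2fastq 2.20.0.422, with GRCm39 and GRCm38 as builds. What each was used for, which program counted the reads, with which strand setting, and how molecular identifiers (UMIs) were handled is not given in the sources used here. Per the labels' protocols, UMIs were added during second strand synthesis in the quadriceps and 1 h libraries, while the 6 h libraries used the standard kit.

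Lines that were not genes (5, 5 and 121) were left out of tests and totals. Gene lines held a mean of 74.9%, 65.3% and 99.8% of the counts in quadriceps, pgWAT at 1 h and pgWAT at 6 h. Samples were grouped by title. The treatment entry of quadriceps TG replicate 10 names 1 h where its title says clamped, and its group is that of the title. Symbols came with the deposited 6 h counts and positions from GENCODE vM21 (GRCm38), and tables were joined on the gene identifier.

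Each set was tested on its own with edgeR 4.0.16 in R 4.3.3 (filterByExpr by genotype, TMM, robust quasi-likelihood F test). Differences between changes were tested as interactions in joint fits. The procedure was tested on simulated data with known changes. Alternatives were DESeq2 1.42.0, its size factors in edgeR, library totals only, no filter on low counts and a replicate block. For quadriceps and 1 h a factor from the library numbers (remainder after division by 8) was added. Further fits left out the highest heat shock sums (quadriceps WT 2 and WT 10), the highest liver sums (1 h WT 7 and TG 3) or each library in turn.

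The genes, the lists and the rule for names were chosen with earlier results of these data known. The 34 genes are all accounted for, and called genes, Fbxo32, Trim63, Sqstm1 and the ATG8 family are given with their values in each set. From each further list and set, up to 4 called genes with the smallest p are named, beside Foxo1, Foxo3, Ddit4 and Klf15 throughout. No pair of libraries within a genotype and set held identical values. The replicate numbers were not treated as pairs in the main tests.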

Additional observations from a re-analysis of the deposited data

Results flagged for a closer look

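Some values stood far from the rest of their group. In quadriceps, WT replicate 1 had 103 CPM of Atg101, where the next WT library had 63.7 CPM, and 368 CPM of Map1lc3a, where the next had 265 CPM. Sqstm1 reached 528 CPM in TG replicate 5 of pgWAT at 1 h, with the next TG library at 421 CPM, and 391 CPM in WT replicate 3 of pgWAT at 6 h, with the next WT library at 308 CPM. Gabarapl2 reached 48.0 CPM in WT replicate 5 of pgWAT at 6 h, with the next at 45.6 CPM, in a group that spanned a narrow range. The check for a distant library covered 74 groups, and chance alone sets off about 1 in 20.

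Other values differed between the genotype changes of 2 sets. From 1 h to 6 h in fat, the log2 change differed by 0.70 for Atg101 and 0.39 for Wipi1. Between quadriceps and fat at 6 h it differed by -0.81 for Fbxo32, -0.66 for Gabarapl1, -0.70 for Atg101, -0.35 for Wipi1 and -0.47 for Bnip3. The part of kit, time, tissue and clamp in these differences was not tested.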

How the results depend on the processing

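The number of the 34 genes called stayed at 1 in quadriceps and 0 in pgWAT at 1 h, by edgeR and DESeq2, under every alternative run. In pgWAT at 6 h it was 7, ranged from 5 to 7 without single libraries, and was 5 with library totals only and 6 without the filter. Deviations of same-numbered libraries had correlations of -0.179 to 0.200 in quadriceps, -0.180 to 0.372 at 1 h and -0.0870 to 0.105 at 6 h. Above 0.1 were 3 of 10, 4 of 9 and 1 of 6 pairs, with replicates 5 and 9 at 1 h the highest (0.372 and 0.357). For 1 of 10, 2 of 9 and 2 of 6 TG libraries, the best-matching WT library had the same number. With a replicate block the counts over the 34 genes were 1, 0 and 5, with Gabarapl1 and Tfeb not called at 6 h. Of 1165 refits of named genes 1062 kept sign and call, 81 lost a call and 22 turned sign, all of the last in genes not called. Without single libraries, log2 changes ran from -0.085 to 0.062 for Trim63 and -0.092 to 0.069 for Map1lc3a in quadriceps. At 1 h they ran from -0.042 to 0.052 for Sqstm1, -0.047 to 0.0094 for Gabarap and -0.057 to 0.076 for Gabarapl1. Trim63 was 0.076 without WT 2 and WT 10. Library totals gave -0.026 for Sqstm1 and -0.022 for Gabarapl1, and leaving out WT 7 and TG 3 gave -0.023 for Gabarapl1. The cause was not tested. The quadriceps and 1 h libraries were shallower than those at 6 h but had more samples in a group, and the part of depth in the number of calls was not tested.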
